A study of Mus musculus with 8 samples.

Results

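The genes described here are the amino acid transporters of the SLC families 1, 3, 6, 7, 36, 38 and 43 in primary hepatic stellate cells in which PAK4 had been silenced. Members were all genes annotated as protein-coding in the deposited table whose symbol places them in one of these families, without Slc7a11 and Slc3a2, which left 63 of the 45777 genes. The rule takes symbols, not functions, so it also holds the monoamine transporters of SLC6, the nucleobase transporter Slc43a3, and Slc7a6os and Slc6a19os, which are named for lying opposite a transporter gene. RNA came from stellate cells of male wild-type C57BL/6 mice transfected with control siRNA (siControl, 4 libraries) or with siRNA against PAK4 (siPAK4, 4 libraries), and the comparison asks how transcript levels differ when PAK4 is low during activation. All 8 libraries carry the label Batch 1, and the labels leave unsaid whether a replicate is a mouse, an isolation or a dish. The p-values therefore measure only sample-to-sample spread, which may be technical.

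Amino acids cross membranes through carriers that differ in substrate and in driving force. The SLC1, SLC6 and SLC38 families mostly use the sodium gradient to concentrate glutamate, neutral amino acids, glycine, taurine, betaine or creatine. The light chains of SLC7 pair with the heavy chain Slc3a2 and exchange 1 amino acid for another, the cationic transporters of SLC7 carry arginine and lysine, and members of SLC36 and SLC38 work on the lysosome, where mTORC1 reads amino acid supply. Activated stellate cells make collagen, a protein rich in glycine and proline, and are known to draw heavily on glutamine.

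The libraries held 55728583 to 61535063 counts. Pak4 itself fell from 17.2 ± 1.14 to 6.32 ± 1.13 CPM (mean ± SD, n = 4 in each group here and below; CPM is the read count scaled to library size), a log2 ratio of siPAK4 over siControl of −1.44 (adjusted p = 9.4e-06 by edgeR's quasi-likelihood test over 17975 genes, as are all adjusted p-values here). On the second principal component siPAK4 replicate 3 stood apart from the other siPAK4 libraries. The 12 stellate cell markers summed to between 1698 and 2134 CPM in siControl and between 1074 and 1349 in siPAK4, with 7 of 11 tested lower and 1 higher, and the retinoid storage gene Lrat was near 0 (0.0269 CPM in siControl, 0.216 in siPAK4). Markers of other liver cells were present too. The 13 macrophage markers summed to between 9207 and 10660 CPM in siControl and between 5157 and 8331 in siPAK4. Most of that was Lyz2, at 7815 and 4850 CPM on average. Of the 12 tested, 8 were lower, while Adgre1 (386 and 425 CPM), Cd68 (241 and 234 CPM), Cd14 and Timd4 were not called. The Kupffer cell gene Clec4f was near 0. The 12 endothelial markers summed to between 6592 and 6842 CPM in siControl and between 3940 and 5744 in siPAK4, with 7 lower and 3 higher. The 9 mesothelial and portal fibroblast markers summed to between 968 and 1203 and between 427 and 540 CPM, with 6 lower. Hepatocyte markers were at trace level, 3.61 to 5.42 CPM summed over 12 genes in siControl and 9.97 to 23.0 in siPAK4, with 4 of 7 tested higher, and Apoc3 was at 0 in every siControl library. Cholangiocyte (1 of 5 tested lower, almost all Spp1), lymphocyte (0 of 3 called) and neutrophil markers (0 of 1 called; Ly6g, Retnlg and Elane at 0) gave few calls. What part the marker shifts have in the results on transporters was not tested, and in bulk RNA fewer cells of a type and less RNA per cell cannot be told apart.

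With siPAK4 some transporter genes rose and others fell, and SLC6, SLC7 and SLC43 each held calls in both directions. Of the 63 members, 38 had enough reads to test; 6 were higher, 11 were lower and 21 did not pass. In all tested genes 26.9% were called, 12.4% higher and 14.5% lower, against 15.8% higher and 28.9% lower among the tested members. Without Slc7a6os, which is not a transporter, 5 were higher and 11 lower of 37. The tested members had a median log2 ratio of −0.14, against 0.0052 over all tested genes. With libraries scaled by their totals alone these medians were −0.0495 and 0.0938. The 2 groups of libraries did not overlap in 18 of the 38, where the share among all tested genes was 28.8%. A total of 36 of the 38 were above the minimum in every library, and the exceptions, Slc1a6 and Slc3a1, did not pass.

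**Figure D1:**
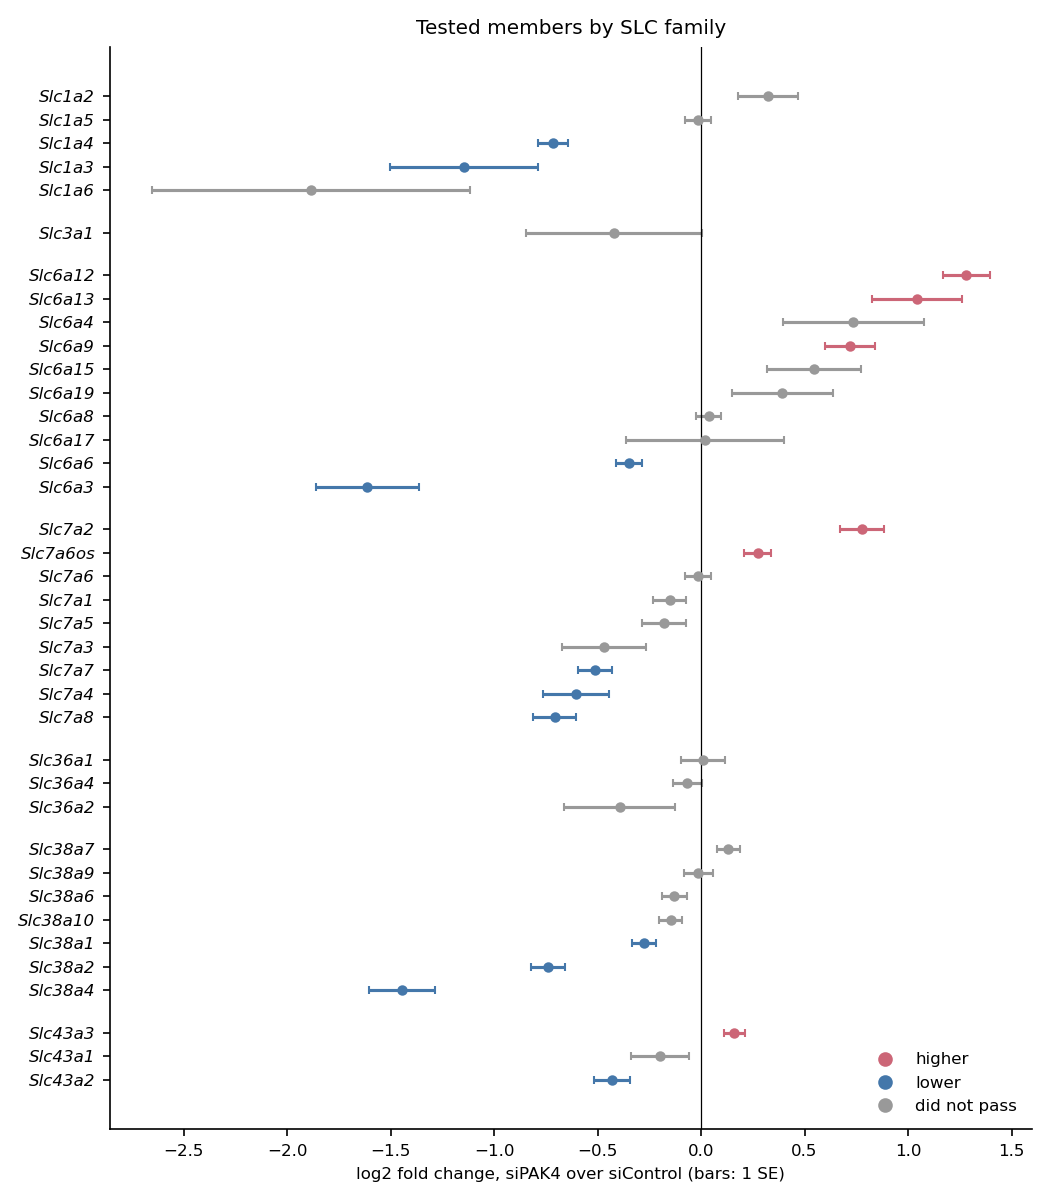
Log2 ratio of the 38 tested members (x axis, siPAK4 over siControl, bars are 1 SE), grouped by SLC family on the y axis and coloured by the call at an adjusted p of 0.05. SLC6 holds both the largest rise (Slc6a12, 1.28) and the largest called fall (Slc6a3, −1.61), and the called members of SLC38 and SLC1 all lie to the left of 0.

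The families differed in how many members had enough reads to test: 5 of 7 in SLC1, 1 of 1 in SLC3, 10 of 22 in SLC6, 9 of 15 in SLC7, 3 of 4 in SLC36, 7 of 11 in SLC38 and 3 of 3 in SLC43. TPM, which is scaled to gene length, allows levels to be set side by side between genes. Slc38a2, the sodium-coupled SNAT2 that brings in alanine, glutamine and other small neutral amino acids, was the most abundant member at 316 ± 24.2 TPM in siControl and 195 ± 30.2 TPM in siPAK4. The taurine transporter Slc6a6 came next (153 ± 11.5 and 123 ± 3.45 TPM), then Slc38a10 (107 ± 3.40 and 99.9 ± 5.22 TPM). Slc43a3 and the large neutral amino acid transporter Slc43a2 followed, at 71.4 ± 3.65 and 74.2 ± 8.27 TPM in siControl, an order within their spread. In siPAK4 they were at 82.4 ± 7.94 and 56.9 ± 8.66 TPM, with Slc43a3 above Slc43a2 in every library of that group. Together those 5 genes held 62.9% to 63.3% of the members' summed TPM in the siControl libraries and 56.0% to 58.0% in the siPAK4 libraries. The summed TPM of all members ran from 1055 to 1210 in siControl and from 870 to 1054 in siPAK4, and the lowest library was siPAK4 replicate 3.

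**Figure D2:**
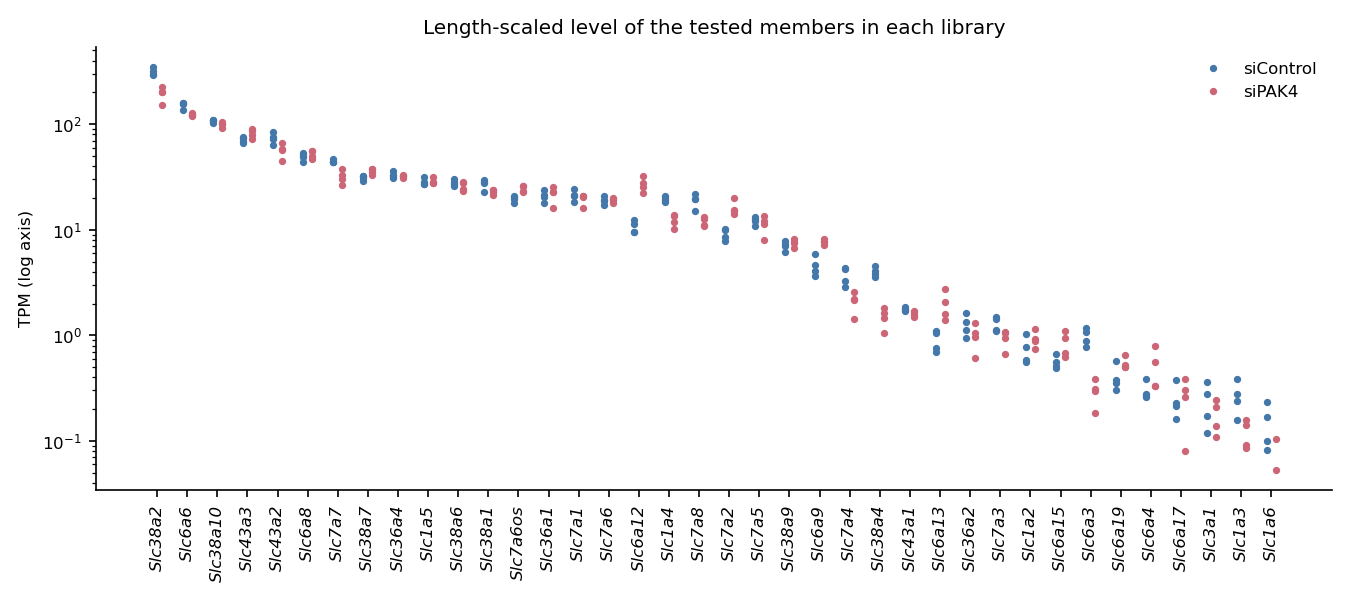
TPM of each tested member in each library (y axis, log scale), ordered by the mean over all libraries, with siControl and siPAK4 side by side; values of 0, which occur for Slc1a6, are not drawn. Levels run from 316 TPM (Slc38a2, siControl mean) to below 1 TPM, and the groups separate for Slc38a2, Slc6a12, Slc38a4 and Slc6a3 among others.

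Of the tested members, Slc6a12 had the clearest rise. Slc6a12 (NCBI gene 14411, mm10 chromosome 6, 121342574 to 121365773) encodes BGT1, which takes up betaine and GABA. Its level was 13.7, 10.7, 12.8 and 10.9 CPM across the siControl replicates, in order, and 26.2, 33.3, 32.6 and 24.9 CPM across the siPAK4 replicates. Every siPAK4 library was thus well above every siControl library, a 2.43-fold difference (log2 ratio 1.28, SE 0.115, adjusted p = 1.6e-05). Its neighbour Slc6a13, which encodes the GABA transporter GAT2 and lies 4.85 kb away, was present at a much lower level. It measured 1.17, 0.822, 1.14 and 0.796 CPM in siControl and 2.06, 2.72, 1.81 and 1.52 CPM in siPAK4 (log2 ratio 1.04, SE 0.219, adjusted p = 0.0045). Again the groups did not overlap. Hepatocyte markers, at trace level, were also higher in these siPAK4 libraries (sums given above), and their part was not tested.

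Slc6a12 is a textbook target of the osmotic stress factor NFAT5, which binds the tonicity element TonE, so the promoters of the neighbours are shown here with the letters of that element, searched by name on both strands. In the RefSeq promoter windows (GRCm38.p6, the build also called mm10; 250 bases before to 50 after each start) 5.74% of 27025 genes hold it, as do 7 of the 45 members that have a window and 2 of the 4 higher members that have one. The stretches below lie upstream of an annotated start of each gene, at chr6:121342484-121342524 and chr6:121303547-121303587 on the plus strand; the Slc6a13 start is not the gene's first. Capitals mark the match.
Slc6a12: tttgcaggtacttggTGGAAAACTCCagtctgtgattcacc
Slc6a13: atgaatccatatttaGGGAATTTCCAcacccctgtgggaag
The match begins 75 bases before the start of Slc6a12 and 77 bases before that start of Slc6a13, where it reads on the opposite strand. A match describes letters only. The lower gene Slc38a4, the uncalled genes Slc38a6 and Slc6a17 and the untested genes Slc36a3 and Slc6a21 hold the element as well.

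Other sodium-coupled SLC6 genes went their own ways. Slc6a9, the glycine transporter GlyT1, rose from 8.81, 7.08, 6.28 and 5.77 CPM in siControl to 10.9, 11.6, 11.4 and 12.1 CPM in siPAK4 (log2 ratio 0.72, SE 0.121, adjusted p = 0.0011). The siPAK4 values were close together and all above the highest siControl library, replicate 1. The abundant taurine transporter Slc6a6 fell by a small amount, from 440 ± 25.9 to 345 ± 20.3 CPM (log2 ratio −0.35, adjusted p = 0.0019), without overlap. The creatine transporter Slc6a8 was level at 91.8 ± 6.83 and 94.2 ± 2.60 CPM (log2 ratio 0.036, SE 0.0604, adjusted p = 0.71). Slc6a3, which encodes the dopamine transporter and carries no amino acid, had the largest fall that passed. It was at 1.41, 1.25, 2.1 and 1.80 CPM in siControl and 0.536, 0.510, 0.366 and 0.733 CPM in siPAK4 (log2 ratio −1.61, SE 0.249, adjusted p = 0.00064). These are low levels, but no siPAK4 library reached the lowest siControl library. The serotonin transporter Slc6a4 and the neutral amino acid transporters Slc6a15, Slc6a17 and Slc6a19 were all below 1.5 CPM on average and did not pass, with log2 ratios of 0.74, 0.55, 0.020 and 0.39. Slc6a15 passed without siPAK4 replicate 1 (0.68, adjusted p = 0.045).

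**Figure D3:**
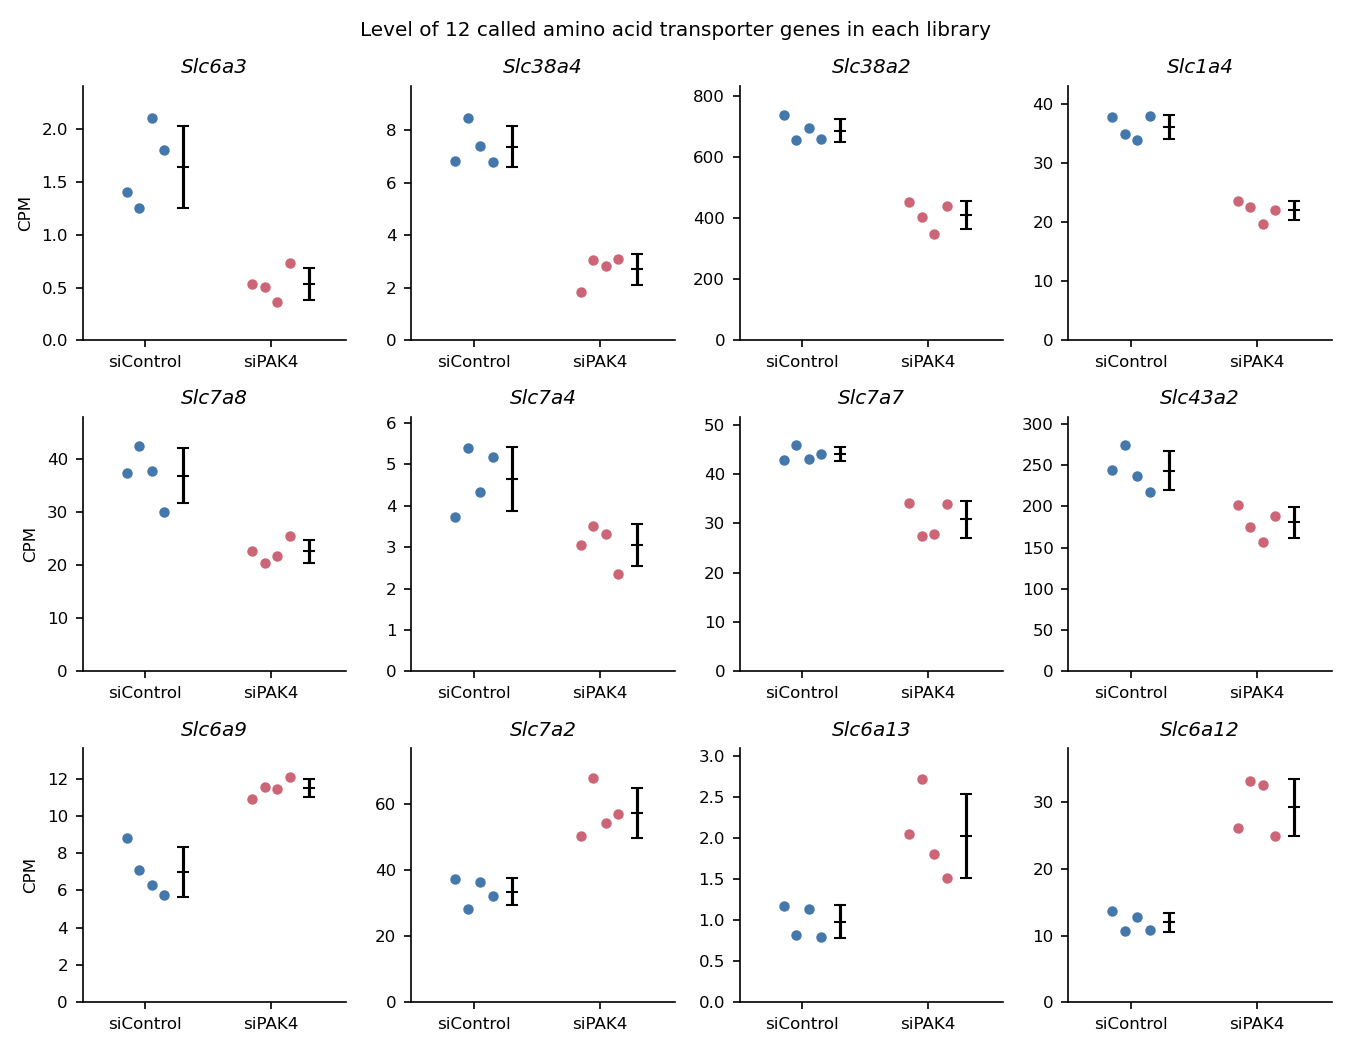
CPM in each library (points; y axes start at 0) with the group mean and SD (black), for the 12 called members with the largest log2 fold changes and a mean of at least 1 CPM. The 8 lower genes come first, from Slc6a3 to Slc43a2, and the 4 higher genes last, from Slc6a9 to Slc6a12; in none of the 12 panels do the groups overlap.

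Among the cationic transporters of SLC7, the inducible CAT2 gene rose while the constitutive CAT1 gene did not pass. Slc7a2 (NCBI gene 11988, chromosome 8, 40862341 to 40922070) supplies arginine, the substrate of nitric oxide synthase and arginase. Its level was 37.3, 28.2, 36.5 and 32.1 CPM in siControl and 50.5, 68.0, 54.2 and 56.9 CPM in siPAK4. The lowest siPAK4 library was above the highest siControl library (1.71-fold, log2 ratio 0.78, SE 0.106, adjusted p = 0.0003). Slc7a1, the widely expressed CAT1, was at 71.0 ± 6.72 and 63.9 ± 5.75 CPM (log2 ratio −0.15, SE 0.0812, adjusted p = 0.19), and Slc7a3 (CAT3) was near 1 CPM and did not pass (−0.47, adjusted p = 0.11). In TPM, Slc7a2 made up 28.3%, 25.6%, 31.2% and 30.4% of the 3 cationic transporters over the siControl replicates and 40.5%, 48.4%, 45.5% and 40.9% over the siPAK4 replicates. Slc7a1 went from 67.1 ± 2.78% to 53.7 ± 3.71% of that sum. These shares are a description, with no test. Slc7a4, a cationic transporter homologue with no settled substrate, fell from 3.72, 5.40, 4.33 and 5.18 CPM to 3.06, 3.50, 3.33 and 2.35 CPM (log2 ratio −0.61, SE 0.159, adjusted p = 0.015). The gap between its groups was narrow, and without siControl replicate 2 it did not pass (−0.53, adjusted p = 0.053).

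The genes that use arginine were called in both directions in the same libraries. Of 18 arginine and polyamine genes, 3 rose, 3 fell and 12 were not called (median log2 ratio −0.090; 5 lower without siPAK4 replicate 3). Among all tested genes 12.4% were called higher and 14.5% lower. The mitochondrial arginase Arg2 rose from 1.65 ± 0.562 to 6.14 ± 1.79 CPM (log2 ratio 1.89, adjusted p = 0.00032). The inducible nitric oxide synthase Nos2, which like Arg2 consumes arginine, rose from 8.24 ± 1.65 to 13.8 ± 3.42 CPM (0.74, adjusted p = 0.013). The groups overlapped for Nos2. Gatm, which makes the creatine precursor from arginine and glycine, fell from 54.2 ± 2.20 to 28.9 ± 3.26 CPM (−0.91, adjusted p = 1.2e-05). The polyamine catabolic genes Paox (−0.75, adjusted p = 0.00073) and Sat1 (−0.49, adjusted p = 0.0017) fell too, and Smox, which oxidises spermine, passed narrowly (0.22, adjusted p = 0.041). Arg1 was level (5.89 ± 1.25 and 5.99 ± 1.34 CPM, log2 ratio 0.023, adjusted p = 0.95).

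Among the light chains that pair with Slc3a2, Slc7a11 rose with the heavy chain while Slc7a8 and Slc7a7 fell. Slc3a2, outside the member list, rose from 167 ± 9.11 to 237 ± 8.79 CPM (log2 ratio 0.51, adjusted p = 6.2e-05), as did Slc7a11, the cystine and glutamate exchanger, from 434 ± 57.0 to 826 ± 93.2 CPM (0.93, adjusted p = 6.9e-05). Slc7a8, which encodes the neutral amino acid exchanger LAT2, went the other way, from 37.4, 42.5, 37.7 and 30.0 CPM to 22.7, 20.3, 21.8 and 25.5 CPM (−0.71, SE 0.104, adjusted p = 0.00046). Its groups did not overlap, although siControl replicate 4 lay closest to the siPAK4 libraries. Slc7a7, the y+LAT1 gene, whose product exports arginine and lysine in exchange for neutral amino acids and is known from macrophages, was at 42.9, 45.9, 43 and 44.2 CPM in siControl. In siPAK4 it was at 34.2, 27.4, 27.8 and 33.8 CPM (−0.51, SE 0.0819, adjusted p = 0.00078). Of the macrophage markers, 8 of 12 tested were also lower in these libraries (sums given above), while Adgre1, Cd68 and Cd14 were among those not called. The part of these marker shifts in the fall of Slc7a7 was not tested. Slc7a7 shares 228 bases with Oxa1l on the opposite strand, Slc6a9 shares 51 with Ccdc24 and Slc6a6 shares 10287 with Gm44981. The strand setting of the counting is not given in the sources used here, so reads of such partners cannot be told apart. Slc38a1, Slc38a4 and Slc7a4 also overlap long noncoding genes.

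LAT1 and y+LAT2 did not pass. Slc7a5, which encodes LAT1, the main importer of leucine and other large neutral amino acids in growing cells, was at 20.1 ± 1.29 and 17.7 ± 2.84 CPM (log2 ratio −0.18, SE 0.108, adjusted p = 0.25). Slc7a6 was at 34.0 ± 2.17 and 33.7 ± 1.00 CPM (−0.014, SE 0.0624, adjusted p = 0.90), with a sign that flipped under library totals (0.075). The gene beside it, Slc7a6os, rose from 14.1 ± 0.595 to 17.0 ± 0.212 CPM (0.27, adjusted p = 0.0086), without overlap. Of the summed TPM of the 6 light chain genes, Slc7a11 held 51.3 ± 3.71% in siControl and 72.5 ± 3.87% in siPAK4. Over the same libraries the share of Slc7a7 went from 23.0 ± 2.23% to 11.8 ± 2.1% and that of Slc7a8 from 9.73 ± 1.32% to 4.43 ± 0.681%. Slc7a10 had no read.

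**Figure D4:**
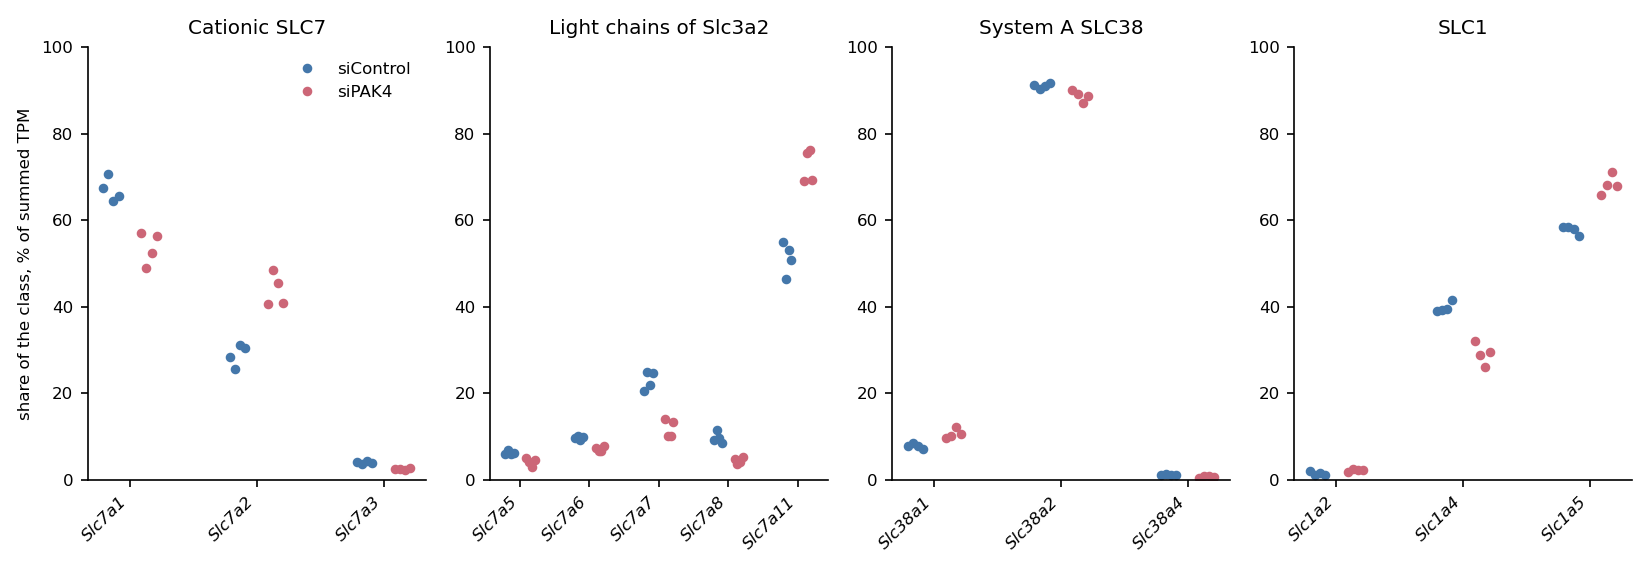
Share of each gene in the summed TPM of its transport class (y axis, percent, 0 to 100), 1 point per library, for genes with a mean share of at least 1% in siControl. The siPAK4 points of Slc7a2, Slc7a11, Slc38a1 and Slc1a5 all lie above their siControl points. Those of Slc7a1, Slc7a3, Slc7a5, Slc7a6, Slc7a7, Slc7a8, Slc38a2, Slc38a4 and Slc1a4 all lie below, and the groups overlap for Slc1a2.

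All 3 genes of system A, the sodium-coupled route for small neutral amino acids, fell. Slc38a2 (NCBI gene 67760, chromosome 15, 96687392 to 96699728) was at 738, 655, 696 and 659 CPM in siControl and 452, 405, 348 and 440 CPM in siPAK4. The drop was seen in every siPAK4 library and was deepest in replicate 3 (1.67-fold lower, log2 ratio −0.74, SE 0.0821, adjusted p = 6.5e-05). Slc38a4, which encodes SNAT4, fell furthest, from 6.81, 8.47, 7.42 and 6.79 CPM to 1.83, 3.06, 2.83 and 3.08 CPM (2.73-fold lower, −1.45, SE 0.159, adjusted p = 6.1e-05). Slc38a1, the SNAT1 gene, fell least, from 94.5 ± 6.07 to 78.0 ± 3.04 CPM (−0.28, SE 0.0593, adjusted p = 0.0051), and did not pass in TPM (−0.23, adjusted p = 0.087 with a pseudocount of 0.1). The class as a whole summed to 347 TPM in siControl and 219 TPM in siPAK4, of which Slc38a2 held 91.0 ± 0.623% and 88.7 ± 1.24%.

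The 3 system A genes lie next to each other on chromosome 15, Slc38a1 44.0 kb from Slc38a2 and Slc38a2 295 kb from Slc38a4. Slc7a7 and Slc7a8, which both fell, lie 302 kb apart on chromosome 14. Slc43a1, which was not called, lies 73.0 kb from Slc43a3, which was higher. These distances are a description, and neighbouring genes outside the families were not compared.

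The other 4 tested SLC38 genes did not pass. Slc38a10 was at 214 ± 8.65 and 193 ± 9.23 CPM (log2 ratio −0.15, SE 0.0549, adjusted p = 0.070), with groups that did not overlap. Slc38a6 had 58.4 ± 2.85 and 53.3 ± 2.87 CPM (−0.13, SE 0.0601, adjusted p = 0.13), also without overlap. Slc38a7, which exports glutamine and asparagine from lysosomes, had 47.9 ± 1.46 and 52.4 ± 2.51 CPM (0.13, SE 0.0562, adjusted p = 0.11), and it passed without siPAK4 replicate 3 (0.16, adjusted p = 0.029) and with library totals (0.22, adjusted p = 0.013). Slc38a9, the lysosomal arginine sensor that acts on mTORC1, was at 31.2 ± 2.77 and 30.9 ± 0.871 CPM (−0.013, SE 0.0713, adjusted p = 0.92), again with a sign that depended on the scaling.

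Of the 2 neutral amino acid exchangers in SLC1, 1 fell and the other was not called. Slc1a4, which encodes ASCT1, a carrier of alanine, serine and cysteine, fell from 37.8, 34.8, 33.8 and 37.8 CPM to 23.5, 22.6, 19.7 and 22.0 CPM (1.64-fold lower, log2 ratio −0.72, SE 0.0715, adjusted p = 3.1e-05). The gap between the groups was wide against the spread within each. Slc1a5, the glutamine exchanger ASCT2, was level at 36.7 ± 1.91 and 36.3 ± 1.98 CPM (−0.016, SE 0.0636, adjusted p = 0.89; 0.073 with library totals). Slc1a4 went from 39.8 ± 1.14% to 29.1 ± 2.43% of the family's summed TPM and Slc1a5 from 57.7 ± 1.04% to 68.2 ± 2.28%. The glutamate transporters proper were scarce. Slc1a2, or GLT-1, was at 3.27 and 4.09 CPM on average (0.32, adjusted p = 0.12; called higher with library totals, 0.41, adjusted p = 0.047). Slc1a3, or GLAST, passed narrowly, at 0.529 ± 0.196 and 0.238 ± 0.0725 CPM with overlapping groups (−1.15, SE 0.357, adjusted p = 0.033). It did not pass without siControl replicate 2, 3 or 4 or without siPAK4 replicate 1, 2 or 3, with adjusted p between 0.059 and 0.11, nor in the TPM fits (0.079 with a pseudocount of 1, 0.058 with 0.1). Slc1a6 averaged 0.368 and 0.0979 CPM (−1.89, SE 0.768, adjusted p = 0.093) and passed without siPAK4 replicate 1 (−2.81, adjusted p = 0.039).

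In SLC43 a carrier of large neutral amino acids fell and the nucleobase carrier rose slightly. Slc43a2 (LAT4), which carries leucine, phenylalanine and methionine without sodium, was at 243, 274, 237 and 218 CPM in siControl and 201, 175, 157 and 189 CPM in siPAK4 (−0.43, SE 0.0865, adjusted p = 0.0035). All siPAK4 libraries were below all siControl libraries, the lowest being replicate 3. Slc43a1 (LAT3) was near 2 CPM and did not pass (−0.20, adjusted p = 0.34). Slc43a3, which carries nucleobases, rose slightly from 86.9 ± 2.62 to 97.1 ± 3.81 CPM (0.16, SE 0.0511, adjusted p = 0.037). That call was lost without siControl replicate 2, 3 or 4 and without siPAK4 replicate 1, 2 or 4, with adjusted p between 0.064 and 0.10, with the replicate number as a block (adjusted p = 0.053), with no filter on low counts (0.066) and in both TPM fits (0.087).

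The proton-coupled SLC36 genes did not pass. Slc36a4 was at 85.5 ± 5.26 and 81.7 ± 6.48 CPM (−0.066, SE 0.0683, adjusted p = 0.52; 0.022 with library totals). Slc36a1, whose product works on lysosomes, was at 50.2 ± 4.49 and 50.5 ± 7.68 CPM (0.0090, SE 0.106, adjusted p = 0.96), and siPAK4 replicate 3 was its lowest library at 40.0 CPM. Slc36a2 was near 1 CPM (−0.39, adjusted p = 0.32). Slc3a1, the heavy chain rBAT of kidney and gut, was at 0.258 and 0.191 CPM (−0.42, adjusted p = 0.51).

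A total of 25 members could not be tested. No read was found for 13 of them, among them Slc36a3, Slc38a5, Slc6a2, Slc6a11, Slc6a16, Slc6a18, Slc6a19os, Slc6a20b, Slc6a21, Slc7a9, Slc7a10 and Slc7a12. The other 12 had at most 72 reads over all 8 libraries: Slc1a1, Slc1a7, Slc38a3, Slc38a8, Slc38a11, Slc6a5, Slc6a7, Slc6a14, Slc6a20a, Slc7a13, Slc7a14 and Slc7a15. Slc6a14, a broad importer of neutral and cationic amino acids, had 0 reads in each siControl library and 4, 8, 9 and 8 reads over the siPAK4 replicates. Against a floor of 3 counts over the siControl group, set in place of the 0 reads seen, the lower bound of its rise was 9.31-fold. The floor allows for counting error in siControl only and takes the siPAK4 reads as exact. With no filter on low counts Slc6a14 passed (adjusted p = 0.015).

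Around the transporters, genes of the amino acid response mostly rose. ATF4 is the transcription factor made when amino acids run short or the endoplasmic reticulum is stressed, and Slc7a11, Slc3a2, Slc7a5, Slc38a2, Slc1a4, Slc1a5 and Slc7a1 are known among its targets. Of 21 genes of that response, 11 rose, 1 fell (Stc2, −0.72, adjusted p = 0.00089) and 9 were not called (median log2 ratio 0.27). Among all tested genes 12.4% were higher and 14.5% lower, with a median of 0.0052. Atf4 rose from 244 ± 4.21 to 330 ± 13.8 CPM (0.44, adjusted p = 9.6e-05) and Asns, which makes asparagine, from 55.9 ± 1.32 to 73.5 ± 4.49 CPM (0.40, adjusted p = 0.0004). Trib3 (0.70, adjusted p = 2.3e-05), Ddit3 (0.80, adjusted p = 2.4e-05), Vldlr (0.54, adjusted p = 5.7e-05) and Cebpb (0.75, adjusted p = 5.9e-05) rose as well. Of the 7 transporter genes named above, Slc7a11 and Slc3a2 rose, Slc38a2 and Slc1a4 fell, and Slc7a5, Slc1a5 and Slc7a1 did not pass.

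The element through which C/EBP and ATF factors act on such genes, known as CARE, was searched as TGATGNAA on either strand, to set member promoters beside those of the response genes. It was found in 4.51% of the 27025 genes with a promoter window, in 6 of the 19 response genes with one and in 3 of the 45 members with one. The members were Slc1a4 and Slc7a7, both lower, and Slc6a21, which had no read; none of the 4 higher members with a window held it. The stretches are shown for Slc1a4 (chr11:20332704-20332732), both sites of Slc7a7 (chr14:54418063-54418100 and chr14:54417923-54417952) and, for comparison, Asns (chr6:7693210-7693247), all on the minus strand, with the match in capitals; the Slc7a7 sites lie inside the gene, upstream of internal starts.
Slc1a4: agcgtgcctcctgcgTTGCATCAtctcca
Slc7a7, first site: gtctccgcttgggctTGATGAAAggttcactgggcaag
Slc7a7, second site: tagaagcTGATGCAAcagcttccccgaggg
Asns: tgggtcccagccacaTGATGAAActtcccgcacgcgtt
The match began 4 bases before the start in Slc1a4 and 23 bases before it in Asns. Genes with a match thus differed in direction, Asns higher and Slc1a4 lower, though their matches differ at the base N and in strand. No match says only that these letters are not in this window: the promoter window of Slc38a2 did not hold them.

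Of 34 genes of amino acid sensing by mTORC1, 4 rose, 2 fell and 28 were not called (median −0.011), with 9 higher under library totals, 7 by DESeq2 and 2 without siControl replicate 2. The called share was below the 26.9% among all tested genes. Rragd, a Rag GTPase that recruits mTORC1 to lysosomes, rose from 25.5 ± 1.04 to 44.0 ± 5.59 CPM (0.79, adjusted p = 5.9e-05), and so did its regulators Flcn (0.37, adjusted p = 0.00076) and Fnip1 (0.25, adjusted p = 0.015) and Wdr24, of the GATOR2 complex (0.29, adjusted p = 0.025). The sestrin genes Sesn1, from 45.3 ± 3.20 to 25.9 ± 4.32 CPM (−0.81, adjusted p = 0.00025), and Sesn3 (−0.61, adjusted p = 0.0004), whose products restrain mTORC1, fell.

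Enzymes that handle the transported amino acids were called in both directions, and 26.9% of all tested genes were called. Of 19 genes of glutamine, glutamate and proline metabolism, 1 rose, 6 fell and 12 were not called (median −0.12), with 3 higher and 3 lower under library totals, and 3 lower in TPM and without siControl replicate 1 or siPAK4 replicate 2. Gclc, which makes glutathione's precursor from glutamate and cysteine, rose (0.74, adjusted p = 3.1e-05), while the glutaminase gene Gls2 (−1.05, adjusted p = 0.00015), Glud1 (−0.26, adjusted p = 0.0060) and Oat (−0.30, adjusted p = 0.015) fell. In serine and glycine synthesis 1 of 10 genes was higher and 9 did not pass; it was Mthfd1l (0.19, adjusted p = 0.035), which did not pass in 7 of the 8 fits that left out a library. Of 12 tested genes of branched-chain and aromatic amino acid catabolism 2 were lower, the transaminases Bcat2 (−0.36, adjusted p = 0.0068) and Bcat1 (−0.49, adjusted p = 0.020; 0.060 without siControl replicate 3 and up to 0.13 in TPM). Of 8 tested genes of taurine, betaine and creatine metabolism 1 was higher and 3 lower. Cdo1, which starts taurine synthesis from cysteine, rose from 0.782 ± 0.331 to 2.23 ± 0.429 CPM (1.51, adjusted p = 0.0017). Ckb (−0.74, adjusted p = 0.00035) and Gamt (−0.58, adjusted p = 0.010), genes of creatine use and synthesis, fell, and Aldh7a1 passed narrowly (−0.17, adjusted p = 0.044), and in 6 of 17 alternatives, with an adjusted p of up to 0.27. Of 13 tested transporters and partners outside the member families 3 were higher and 1 lower; besides Slc7a11 and Slc3a2 these were Slc22a4 (0.26, adjusted p = 0.011; 0.081, adjusted p = 0.66 with log2(TPM + 1)) and Clcn5 (−0.18, adjusted p = 0.046), which passed in 7 of 17 alternatives, with an adjusted p of up to 0.35.

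**Figure D5:**
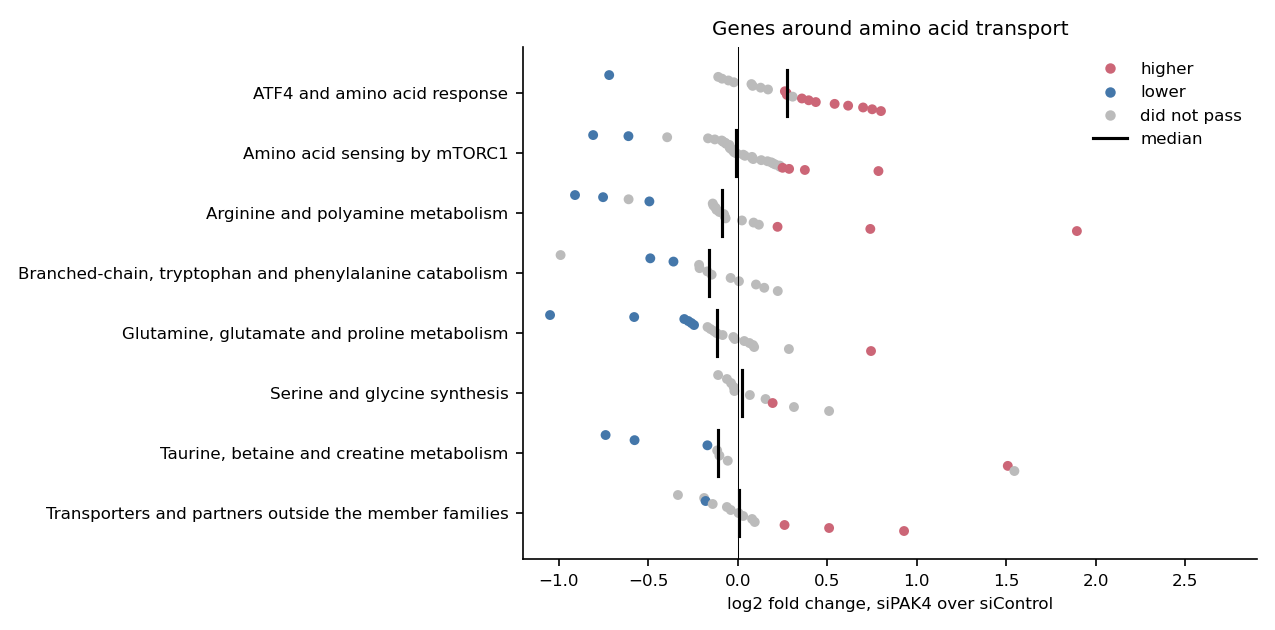
Log2 ratio (x axis, siPAK4 over siControl) of each tested gene in 8 lists around amino acid transport, coloured by the call, with the list's median as a black bar. In the ATF4 list 11 called genes lie to the right of 0 and 1 to the left, and Arg2 (1.89) is the furthest right of all.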

How the data were processed

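Read counts, FPKM and TPM per gene were deposited by the authors in 1 table, per the file headers. The counts deposited by the authors are whole numbers without normalization. TPM as deposited by the authors is scaled to gene length and to 1 total per library, and was used for levels between genes; FPKM as deposited by the authors, scaled to length and depth, was not used. The submitters' processing notes name build mm10 and, without their roles, StringTie 2.1.3b, HISAT2 2.1.0 and Bowtie2 2.3.4.1. The library kit was stranded, per the labels' protocols; how reads were counted, and with which strand setting, is not given in the sources used here, so genes that overlap on opposite strands may share reads. Columns were assigned through library names, leaving 0 unassigned. Replicates differed beyond sampling noise (chi-square per degree of freedom 12.7 to 67.8).

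Genes passing filterByExpr (minimum count 10) were scaled by TMM and tested with edgeR 4.0.16 (quasi-likelihood, robust; Benjamini-Hochberg over 17975 genes; threshold 0.05), in R 4.3.3. The procedure was first tested on simulated counts. CPM uses the TMM-scaled library size; SEs come from the F statistic. The alternatives were other scalings, filters, DESeq2 1.42.0, limma 3.58.1, TPM with pseudocounts of 1 and 0.1, each library left out, and the replicate number as a block.

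The members and lists were chosen with earlier results of these data known, so lists are given by counts and medians with no set test. All called members are named, and some uncalled genes are not reported here; the 12 with the largest log2 fold changes and a mean of at least 1 CPM get every library's value, as do the 6 most abundant uncalled members their mean and SD. Up to 4 genes per list are named by adjusted p; Atf4, Asns, Stc2, Nos2, Smox, Arg1, Fnip1 and Wdr24 were added after their values were seen. The TonE search was also added after the values were seen. Coordinates and promoters are from RefSeq (GRCm38.p6), counted from 1; Slc66a1 was matched as Pqlc2. No protein sequences were used here.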

Additional observations from a re-analysis of the deposited data

Results flagged for a closer look

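Of 132 groups of 4 libraries examined, 6 had 1 library far from the other 3 (by Dixon's test of the gap against the range), and chance flags about 1 in 20 groups. Of the members, Slc38a6 was at 49.1 CPM in siPAK4 replicate 4 against 54.4 to 55.2 in the other siPAK4 libraries, and Slc38a9 at 27.1 CPM in siControl replicate 2 against 32.2 to 33.2. Neither gene passed the test. Of the other named genes, Sesn1 was at 40.5 CPM in siControl replicate 1 (others 46.7 to 47.1), Oat at 139 CPM there (153 to 156) and Mthfd1l at 39.4 CPM there (41.0 to 41.3). Gatm was at 33.7 CPM in siPAK4 replicate 4 (26.7 to 27.8).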

How the results depend on the processing

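No called member changed sign under any of the 17 alternatives, and 13 of the 17 passed in all of them; the exceptions were Slc1a3, Slc43a3, Slc38a1 and Slc7a4. Higher members numbered 5 to 8 and lower members 9 to 12 over the alternatives. The median of −0.14 moved to −0.0495 with library totals, −0.077 with log2(TPM + 1) and −0.10 with log2(TPM + 0.1), and ran from −0.15 to −0.095 when each library was left out. Over all tested genes the median was 0.0052 in the main fit and 0.0938 with library totals. With log2(TPM + 1) that all-gene median was 0.0287, and with log2(TPM + 0.1) it was 0.0398. Library totals also turned the balance over all genes, from 46.1% of calls higher to 67.6%. Signs flipped for 7 uncalled members. With library totals Slc1a5 became 0.073, Slc36a4 0.022, Slc38a9 0.076 and Slc7a6 0.075. With log2(TPM + 1) Slc1a5 became 0.016, Slc38a9 0.066 and Slc7a6 0.012, and with log2(TPM + 0.1) Slc1a5 0.016, Slc38a9 0.074, Slc7a6 0.013 and Slc6a17 −0.0015. With limma-voom Slc36a1 became −0.00041 and Slc6a17 −0.092. Leaving out each library gave −0.040 to 0.019 for Slc1a5, −0.077 to 0.017 for Slc38a9, −0.046 to 0.028 for Slc7a6, −0.047 to 0.10 for Slc36a1, −0.20 to 0.30 for Slc6a17 and −0.0062 to 0.075 for Slc6a8. The cause of these shifts was not tested. The replicate numbers did not pair the libraries: same-numbered deviations correlated at 0.035, −0.047, 0.10 and −0.037, and not every library correlated best with its own number. With the replicate block 5 members were higher, 11 lower, and Slc6a17 became −0.039; all calls went from 4832 to 4587. Members under 1 CPM rest on few reads, and what could be detected at that level was not tested.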

Other observations

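Genes of osmolyte handling other than the members, chosen after the values of Slc6a12, Slc6a6 and Slc38a2 were seen, did not pass. The myo-inositol transporter Slc5a3 was at 97.0 ± 6.81 and 91.2 ± 5.90 CPM (log2 fold change −0.089, adjusted p = 0.36), the aldose reductase gene Akr1b3 at 123 ± 6.13 and 119 ± 7.90 CPM (−0.047, adjusted p = 0.62), and Nfat5, which encodes the factor that binds TonE, at 127 ± 12.8 and 127 ± 15.5 CPM (−0.00024, adjusted p = 1.0).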
